A study of Mus musculus with 12 samples.

Results

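The lysosomal enzymes and membrane proteins examined here are 43 genes that were chosen by symbol: glycosidases, sulfatases, lipid hydrolases, acid phosphatases, activator proteins and lipid carriers, peptidases and a nuclease, membrane proteins, and the machinery that delivers enzymes to the lysosome. Cathepsins and the proton pump are not among them. All 43 symbols were found among the 55291 of the deposited table and were tested with the 19633 genes kept. All 43 counted as having reads in every mouse. A mouse counted as without reads where it shared the lowest value with another mouse of its batch. A lone mouse without reads would thus not be seen.

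RNA came from alveolar macrophages, the phagocytes that live in the airspaces, flow-sorted from lungs of female C57BL/6NJ mice aged 8 to 11 weeks. The ozone group had breathed 0.8 ppm ozone for 4 hours a day on 4 consecutive days, and the filtered-air group had breathed filtered air on the same schedule. Lungs were taken 3 days later. Each group held 6 mice, 3 in each of 2 flow-sort batches, with 1 library per mouse. Both groups were wild-type animals as far as the labels say. The comparison asks how these cells differ in the lung state that follows repeated ozone.

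Each value is a difference on the authors' log2 scale, counted from the filtered-air average of the same gene, which was set to 0. A value of 0.60 in an ozone mouse therefore lies 0.60 above the filtered-air average, and the abundance of one gene against another was not kept. The authors' transformation compresses differences of genes with few reads, so the true change of such a gene is larger than printed. The total number of reads is unknown. The most frequent small step above the value of a library without reads was taken as the worth of 1 read. It lay between 0.097 and 0.12 in the 12 mice, with group means of 0.107 after ozone and 0.108 in filtered air (p = 0.885, two-sided exact permutation). RNA integrity numbers ran from 8.9 to 9.7 (p = 0.747, two-sided exact permutation). All 12 listed markers of alveolar macrophages had reads in every mouse by the same rule. Krt79 and Ear1 were lower by -0.35 and -0.28 after ozone and Car4 was higher by 0.32, each with limma's adjusted p under 0.05. The other 9 did not pass. Most markers of other cells also had reads, 57 of 64 of them in all 12 mice, and 1 of the 64 passed the test (Epcam, an epithelial adhesion protein, at -0.55). In sorted bulk RNA, fewer cells of a type and less RNA per cell cannot be told apart.

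As background, lysosomes are acidic compartments in which hydrolases take apart what a phagocyte ingests, and alveolar macrophages use them to clear surfactant lipid, dust and dead cells. Most of the soluble hydrolases receive a mannose 6-phosphate tag in the Golgi and are carried to the lysosome by receptors for that tag. Many of the genes carry in their promoters a short E-box sequence known as the CLEAR element, which is bound by the transcription factor TFEB and its relatives.

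The promoter letters are shown first, because the motif is known for this class of genes, although most of the 43 lacked it in the windows searched. RefSeq windows of 250 bases before to 50 after the gene start (build GRCm38.p6) were found for 37 of the 43 genes. The 7 bases TCACGTG, searched on both strands, occurred in 12 of the 37 (32.4%), against 4.29% of all 27025 genes with a window. The E-box CACGTG, which lies inside those 7 bases, was held by the same number, 12 of 37, against 8.09% of all genes. The full 10-base palindrome of the CLEAR element, in capitals in the Cln3 and Igf2r sequences below, occurred in 2 of 37 (5.41%) against 0.37%; it holds both shorter motifs. In the last 100 bases of the window, the 7 bases were found in 8 of 37 (21.6%) against 2.09%. Windows of these genes had a median GC content of 57.0%, and all windows 52.7%. Among the 11 genes that rose after ozone, which are described below, 4 held the 7 bases, and among the other 26 with a window 8 did. The sequences below are those 4, followed by Lamp1, which has 4 E-box sites, and by Cln3 and Igf2r, which hold the 10 bases. Each is written 5′ to 3′ on the strand of its gene, with the matching bases in capitals and the build GRCm38.p6; Naglu, Cln3 and Igf2r are given as 30 bases, of which 27 of Naglu's and all 30 of Cln3's lie in annotated exons (GENCODE M21). The Lgmn, Naglu and Cln3 matches thus lie inside the annotated gene, and the second RefSeq window of Lgmn and of Cln3 held no match.
Gaa, chr11:119267802-119267848, plus strand: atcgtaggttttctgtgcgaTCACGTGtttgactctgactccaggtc
Glb1, chr9:114401009-114401055, plus strand: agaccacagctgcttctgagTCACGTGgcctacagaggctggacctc
Lgmn, chr12:102439116-102439162, minus strand: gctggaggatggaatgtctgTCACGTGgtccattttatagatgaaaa
Naglu, chr11:101070009-101070038, plus strand: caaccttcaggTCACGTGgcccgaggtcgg
Lamp1, chr8:13159079-13159160, plus strand: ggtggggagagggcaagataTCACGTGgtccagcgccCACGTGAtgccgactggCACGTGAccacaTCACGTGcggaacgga
Cln3, chr7:126583340-126583369, minus strand: cacgggtactGTCACGTGACccccaacctg
Igf2r, chr17:12769696-12769725, minus strand: gccgactcagGTCACGTGACgctccgggga

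The motif was thus present both in genes that rose and in genes that did not pass. Cln3 and Igf2r, with the 10-base match, and Lamp1 did not pass the test for ozone, at 0.0019, -0.010 and 0.15. A match to these letters is a description of the sequence, and binding was not measured.

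After ozone, 11 of the 43 genes were higher and 0 were lower in limma with an adjusted p under 0.05. Among all genes tested, 2.41% were called higher and 1.84% lower, 4.25% in all. The 11 were Acp5, Psap, Grn, Glb1, Gaa, Naglu, Man2b1, Cd63, Lgmn, Neu1 and Dnase2a. At an unadjusted p under 0.05, 23 were higher, where 8.43% of all genes were, and 0 were lower, where 8.29% of all genes were. The difference was above 0 in 36 of the 43 genes (83.7%), against 48.0% of all genes tested. Its median over the 43 genes was 0.11, and over all genes tested it was -0.0033. In 9 genes the 6 ozone mice lay above all 6 filtered-air mice; 1.96% of all genes did so. In 0 of the 43 did they lie below, as 1.58% of all genes did.

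**Figure D1:**
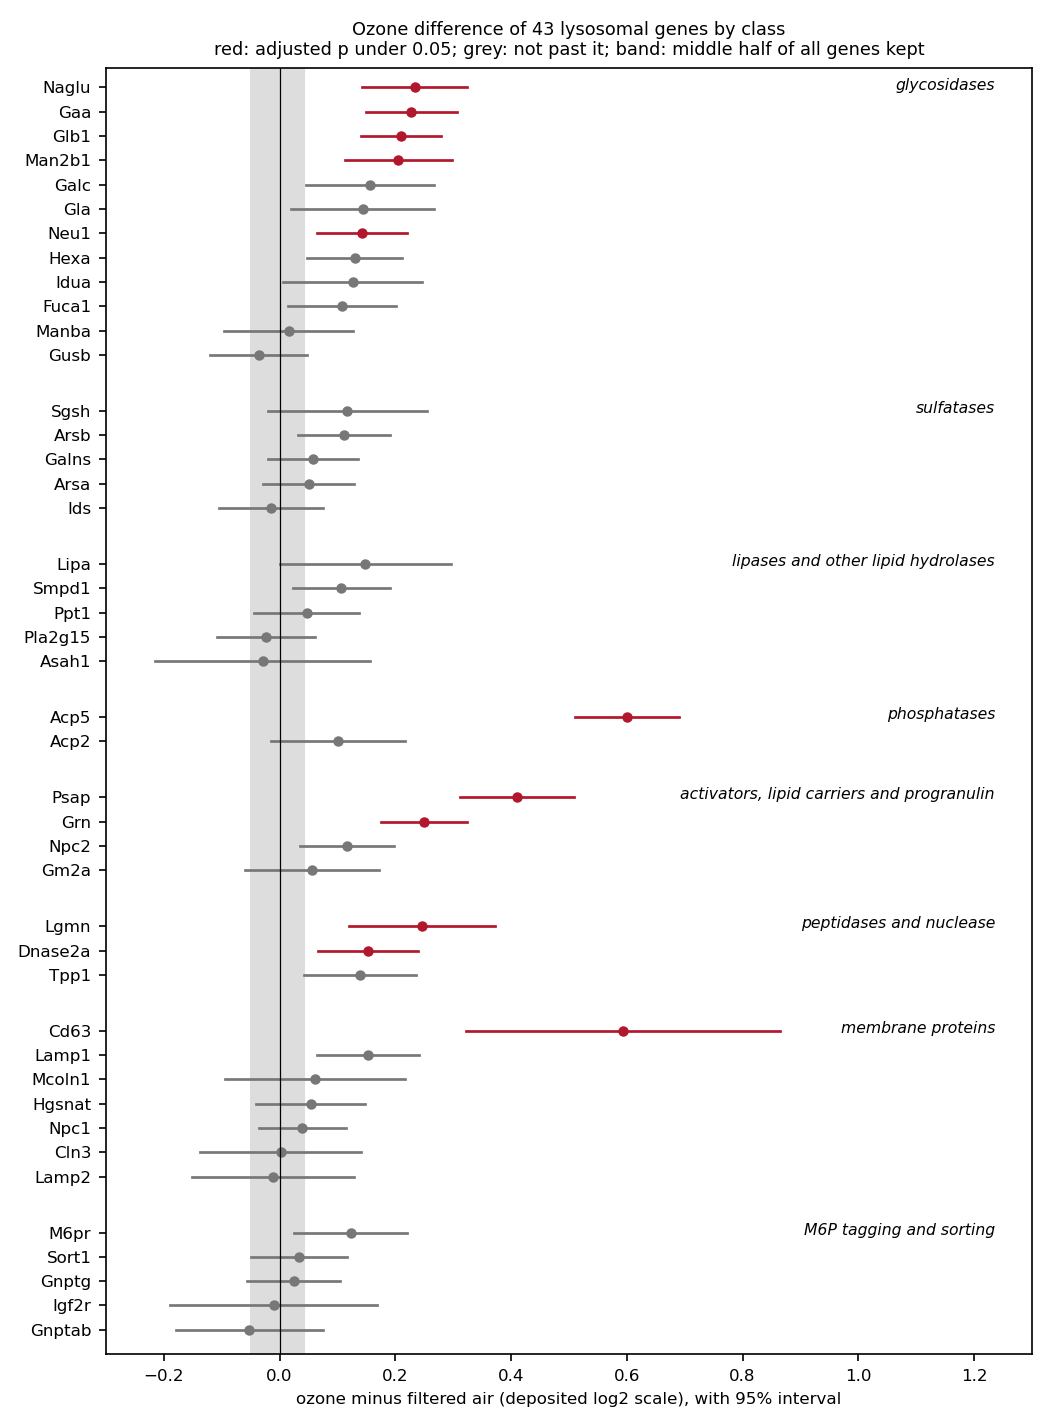
Difference between ozone and filtered air (deposited log2 scale, n = 6 mice per group) for each of the 43 genes, grouped by class; M6P is mannose 6-phosphate. Points are estimates and bars their 95% intervals from limma, red where the adjusted p is under 0.05, and the grey band spans the middle 50% of all genes tested. The 3 farthest to the right are Acp5, Cd63 and Psap, and no gene lies below -0.052.

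The genes that rose came from 5 of the 8 classes. Of the 12 glycosidases 5 rose, with a class median of 0.14. Of the 4 activators, lipid carriers and progranulin 2 rose (median 0.18), as did 2 of the 3 peptidases and nuclease (median 0.15), 1 of the 2 phosphatases (median 0.35) and 1 of the 7 membrane proteins (median 0.054). None of the 5 sulfatases (median 0.058), the 5 lipid hydrolases (median 0.047) or the 5 genes of mannose 6-phosphate tagging and sorting (median 0.025) passed in limma; at an unadjusted p under 0.05 these 3 classes had 1, 2 and 1 members, all higher. Small class medians depended on single mice: that of the lipid hydrolases was 0.026 without ozone replicate 1 or filtered-air replicate 6, that of tagging and sorting was 0.039 without ozone replicate 3, and that of the membrane proteins was 0.035 without filtered-air replicate 2. Whether classes differed from each other was not tested.

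Acp5 and Cd63 had the largest differences of the 43 genes. Acp5 encodes tartrate-resistant acid phosphatase, a secreted and lysosomal enzyme best known from osteoclasts, and lies at chr9:22126727-22135711 (mm10, GENCODE M21). The ozone mice ran from 0.53 to 0.64 with a median of 0.61, and the filtered-air mice from -0.089 to 0.14 with a median of -0.019. All 6 ozone mice were far above every filtered-air mouse. Acp5 rose by 0.60 (SE 0.0420, adjusted p = 7.53e-06 in limma, and 0.0212 with a variance trend). The other acid phosphatase of the list, Acp2, a membrane-bound lysosomal enzyme, did not pass: its ozone mice ran from 0.010 to 0.23, its filtered-air mice from -0.14 to 0.16, and the difference was 0.10 (adjusted p = 0.386). Taken within each mouse, Acp5 minus Acp2 differed between the groups by 0.50 (SE 0.0587, 95% interval 0.37 to 0.63).

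Psap, at chr10:60277627-60302597, encodes prosaposin, the precursor of the saposins, which present sphingolipids to their hydrolases. Its ozone mice ran from 0.27 to 0.48 with a median of 0.43, and its filtered-air mice from -0.097 to 0.086 with a median of 0.024. The groups did not overlap, and ozone replicate 6 was the lowest of its group. Psap rose by 0.41 (SE 0.0462, adjusted p = 0.000402 in limma). Gm2a, the activator that lifts GM2 ganglioside for its hydrolase, overlapped between the groups, at -0.075 to 0.15 after ozone and -0.16 to 0.093 in filtered air. Its difference was 0.056 (adjusted p = 0.685), and Psap minus Gm2a within a mouse differed by 0.35 (SE 0.0271, 95% interval 0.29 to 0.42).

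Grn, at chr11:102430315-102437048, encodes progranulin, a secreted glycoprotein that is cut into granulins in the lysosome and is known to travel there with prosaposin. It had the narrowest spread of the 11 genes after ozone, with 6 mice between 0.23 and 0.27 (median 0.25). The filtered-air mice ran from -0.092 to 0.056, with a median of 0.010, below all ozone mice. Grn rose by 0.25 (SE 0.0345, adjusted p = 0.00160 in limma). Npc2, the soluble carrier that hands cholesterol to the membrane protein Npc1, ran from 0.022 to 0.21 after ozone and from -0.065 to 0.045 in filtered air, a difference of 0.12 (adjusted p = 0.109). Npc1 itself was at 0.040 (adjusted p = 0.654).

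**Figure D2:**
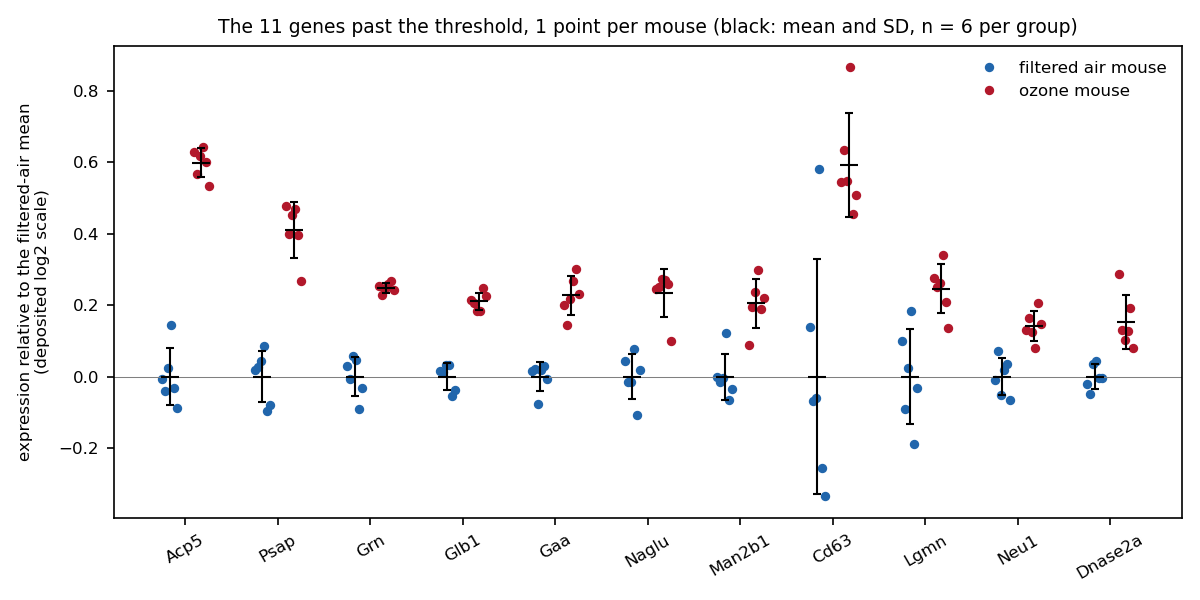
Expression of the 11 genes that rose, relative to the filtered-air mean (deposited log2 scale), with 1 point per mouse, blue for filtered air and red for ozone; black marks are the mean and SD of 6 mice. The groups are separate in 8 of the 11 genes, and in Cd63 1 filtered-air mouse, at 0.58, lies among the ozone mice.

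Among the glycosidases, Glb1, Gaa and Naglu had the smallest p-values. Glb1 (chr9:114401076-114474898), the beta-galactosidase that starts the breakdown of GM1 ganglioside, lay between 0.18 and 0.25 in ozone mice (median 0.21) and between -0.054 and 0.033 in filtered air (median 0.013). It rose by 0.21 (SE 0.0322, adjusted p = 0.00267 in limma), without overlap. Gaa (chr11:119267887-119285454), the acid alpha-glucosidase that degrades lysosomal glycogen, lay between 0.14 and 0.30 (median 0.22) after ozone and between -0.077 and 0.030 (median 0.016) in filtered air. It rose by 0.23 (SE 0.0366, adjusted p = 0.00351), again with separate groups.

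Naglu (chr11:101070012-101077672), the N-acetylglucosaminidase of heparan sulfate breakdown, lay between 0.0998 and 0.27 (median 0.26) after ozone and between -0.11 and 0.077 (median 0.0020) in filtered air. Ozone replicate 6 was alone at the low end, with the nearest other ozone mouse at 0.25, yet it was still above every filtered-air mouse. Naglu rose by 0.23 (SE 0.0424, adjusted p = 0.00659 in limma). The other enzymes of the list that work on heparan sulfate did not pass: Sgsh and Idua were at 0.12 and 0.13, Hgsnat at 0.054, Ids at -0.015 and Gusb at -0.036, with adjusted p-values between 0.268 and 0.915.

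Man2b1 (chr8:85083270-85098282) and Neu1 (chr17:34931253-34935953) trim glycoproteins, as an alpha-mannosidase and a sialidase. Man2b1 rose by 0.21 (SE 0.0431, adjusted p = 0.0146 in limma), with ozone mice from 0.088 to 0.30 (median 0.21) and filtered-air mice from -0.065 to 0.12 (median -0.010). The overlap came from filtered-air replicate 4, at 0.12, and ozone replicate 1, at 0.088. Neu1 rose by 0.14 (SE 0.0365, adjusted p = 0.0415), with mice from 0.081 to 0.21 (median 0.14) and from -0.064 to 0.070 (median 0.0056), and its groups were separate. In the cell Neu1 is known to work in a complex with Glb1 and cathepsin A; Ctsa, which encodes the latter and is outside the 43, was at 0.13 (adjusted p = 0.0584).

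The remaining glycosidases did not pass in limma. Hexa, a hydrolase of GM2 ganglioside, had separate groups, with ozone mice from 0.062 to 0.22 (median 0.11) and filtered-air mice from -0.042 to 0.051 (median -0.0086). Its difference was 0.13, with an adjusted p of 0.0765, or 0.0452 without the batch covariate. The deposited values were already batch-corrected, and the fit without the covariate does not count that correction, so its p-values come out too small. Galc and Gla, which cleave galactosylceramide and globotriaosylceramide, were at 0.16 and 0.14 (adjusted p = 0.118 and 0.211), Fuca1, a fucosidase, at 0.11 (adjusted p = 0.211). Manba, the beta-mannosidase, was at 0.016 (95% interval -0.095 to 0.13).

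In the class of peptidases and nuclease, Lgmn (chr12:102394084-102439813) encodes legumain, the asparaginyl endopeptidase that matures cathepsins and cuts antigens. It rose by 0.25 (SE 0.0587, adjusted p = 0.0288 in limma), from 0.14 to 0.34 (median 0.26) after ozone and from -0.19 to 0.19 (median -0.0035) in filtered air, and the groups overlapped. Dnase2a (chr8:84908560-84922915), the acid nuclease that digests DNA of engulfed cells, rose by 0.15 (SE 0.0404, adjusted p = 0.0470), from 0.079 to 0.29 (median 0.13) and from -0.049 to 0.044 (median -0.0040), without overlap. In the 12 fits that left out 1 mouse, the call of Dnase2a was lost in 11 and that of Lgmn in 8. Tpp1, tripeptidyl peptidase, ran from 0.088 to 0.19 and from -0.14 to 0.10, a difference of 0.14 (adjusted p = 0.113).

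Cd63 was the one membrane protein to rise. It encodes a tetraspanin of late endosomes, lysosomes and exosomes, and lies at chr10:128900989-128912822. Its ozone mice ran from 0.46 to 0.87 with a median of 0.55, and its filtered-air mice had the widest spread of the 43 genes, from -0.34 to 0.58 with a median of -0.065. Filtered-air replicate 4, at 0.58, was above 4 of the 6 ozone mice. Cd63 rose by 0.59 (SE 0.127, adjusted p = 0.0157 in limma), and by 0.72 without that mouse, with an adjusted p of 0.000377. Over the fits that left out 1 mouse its highest adjusted p was 0.0390, and a variance trend (0.0623) or quantile normalization (0.0894) ended the call.

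The other membrane proteins did not pass. Lamp1, the major glycoprotein of the lysosomal membrane, was just short, at 0.15 with an adjusted p of 0.0534; its ozone mice ran from 0.039 to 0.25 (median 0.16) and its filtered-air mice from -0.070 to 0.059 (median 0.019). Lamp1 was called without ozone replicate 6 (adjusted p = 0.0230) and without the filter (0.0497). It was also called with a filter that kept only genes with reads in all mice (0.0491). Without the batch covariate it was called too (0.0307), but that fit does not count the batch correction already made to the values. Its paralog Lamp2, which also serves chaperone-mediated autophagy, was at -0.011 (95% interval -0.15 to 0.13). Within a mouse, Lamp1 minus Lamp2 differed between the groups by 0.16 (SE 0.0450, 95% interval 0.062 to 0.27). Mcoln1, the calcium channel of the lysosome, was at 0.061, and Cln3, a multipass protein whose loss causes a ceroid lipofuscinosis, at 0.0019, with intervals of -0.095 to 0.22 and -0.14 to 0.14.

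No sulfatase passed. Arsb, arylsulfatase B, had the smallest p-value of that class, with ozone mice from 0.053 to 0.15 (median 0.11), filtered-air mice from -0.095 to 0.070 (median 0.017) and a difference of 0.11 (adjusted p = 0.123). Arsa, which cleaves sulfatide, was at 0.050 and Galns, of keratan sulfate breakdown, at 0.058. Among the lipid hydrolases Smpd1, acid sphingomyelinase, came closest, with ozone mice from 0.030 to 0.16 (median 0.12), filtered-air mice from -0.065 to 0.073 (median -0.010) and a difference of 0.11 (adjusted p = 0.162). Lipa, the acid lipase for cholesteryl esters and triglycerides, was at 0.15 (adjusted p = 0.298). Ppt1, the palmitoyl thioesterase, was at 0.047, and Pla2g15 and Asah1, the lysosomal phospholipase and acid ceramidase, were at -0.023 and -0.029. Asah1 varied widely after ozone, from -0.35 to 0.19.

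No gene of enzyme delivery passed either. M6pr, the cation-dependent receptor for mannose 6-phosphate, ran from 0.010 to 0.23 (median 0.10) after ozone and from -0.084 to 0.090 (median -0.0070) in filtered air, a difference of 0.12 (adjusted p = 0.167). The cation-independent receptor, Igf2r, was at -0.010 (95% interval -0.19 to 0.17). Gnptab and Gnptg, subunits of the phosphotransferase that starts the tag, were at -0.052 and 0.025, and Sort1, the sortilin receptor that also carries prosaposin, at 0.034. The 95% intervals of these 4 reach at most 0.17 upward.

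Genes with a related role were also set against each other within each mouse, in 9 pairs chosen after the data had been seen. Several set a gene that rose against a partner that did not pass, so the differences are given as a description, with no test. Beside the pairs above, Man2b1 minus Manba differed between the groups by 0.19 (95% interval 0.048 to 0.33), Npc2 minus Npc1 by 0.077 (0.00038 to 0.15) and Arsb minus Arsa by 0.061 (-0.040 to 0.16). For M6pr minus Igf2r the difference was 0.13 (-0.17 to 0.44), and for Gnptg minus Gnptab 0.077 (-0.099 to 0.25). Unequal compression of genes with different read numbers can enter these differences.

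**Figure D3:**
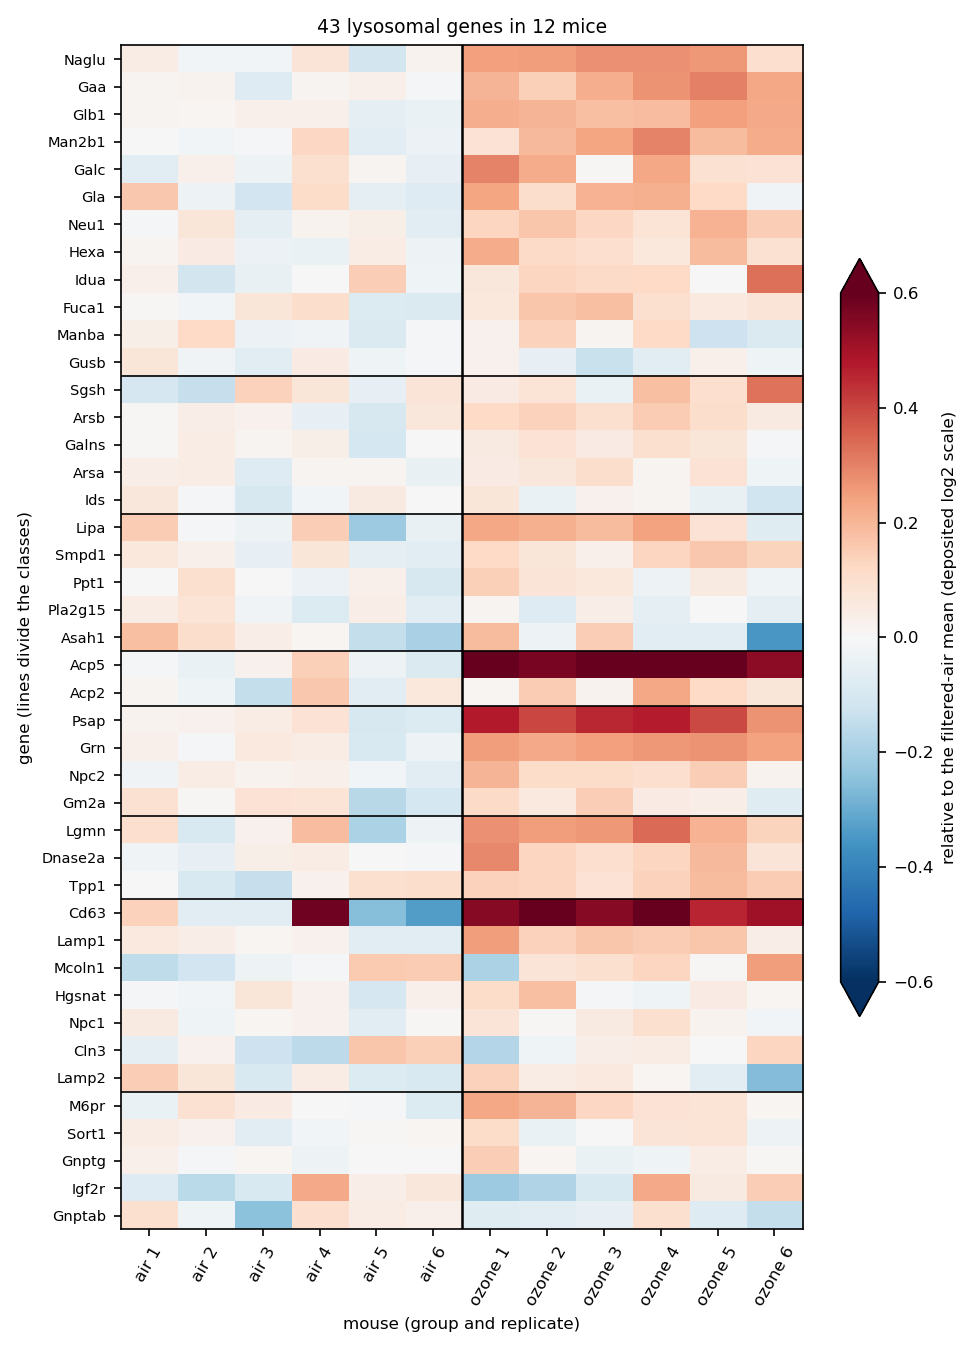
Values of the 43 genes (rows, divided by lines into the classes) in the 12 mice (columns, filtered air left and ozone right), as log2-scale differences from the filtered-air mean; colours end at -0.6 and 0.6. Acp5, Psap and Cd63 are the darkest rows on the ozone side, and filtered-air replicate 4 has a dark cell in Cd63.

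In each mouse the 43 genes were also taken as a group. Their median lay between 0.074 and 0.13 in the 6 ozone mice and between -0.050 and 0.033 in the 6 filtered-air mice. Ozone replicate 6 had the lowest ozone median and the lowest value of its group in 19 of the 43 genes, and filtered-air replicate 4 had the highest filtered-air median and the highest value of its group in 14. Filtered-air replicate 5 had the lowest value of its group in 14 genes. Summed over each of the 9 marker lists of other cells, ozone replicate 6 was the highest ozone mouse in 6 lists and filtered-air replicate 4 the highest filtered-air mouse in 6; the latter also had the lowest RNA integrity number, 8.9. The part of other cells and of RNA quality in the values of these mice was not tested. In each of the 9 lists the sums of the 2 groups overlapped; for the 10 markers of monocyte-derived or interstitial macrophages they ran from -0.95 to 2.16 after ozone and from -2.66 to 2.83 in filtered air, and for the 6 B-cell markers from -2.58 to -0.42 and from -1.48 to 2.29. Differences were below 0 in 6 of 6 B-cell markers (median -0.23) and 6 of 6 dendritic-cell markers (median -0.10), and above 0 in 5 of 5 red-cell markers tested (median 0.14). In limma 0 of these were called, and 3, 2 and 1 had an unadjusted p under 0.05. Camp, a neutrophil granule gene, had no reads in any mouse. Without ozone replicate 6, 11 of the 43 genes were called higher, where 2.27% of all genes were, and the median of the 43 was 0.11. Without filtered-air replicate 4, 9 were called, where 2.21% of all genes were, and the median was 0.12.

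The flow-sort batches were then compared, because the cells had been sorted in 2 sets. Of the 43 genes, 33 (76.7%) had the same sign in both batches, against 63.7% of all genes tested. All 11 genes that rose were higher in both; all 834 genes called on the pooled mice had the same sign in both. For Acp5 the difference was 0.61 in batch 1 and 0.59 in batch 2, for Psap 0.43 and 0.39, for Grn 0.25 and 0.24, and for Cd63 0.71 and 0.48. The ozone difference did not differ between batches in any of the 43 genes in limma's interaction test, and 0 of all genes did (0%). At an unadjusted p under 0.05 it did in 1, Acp2, where 2.60% of all genes did; its difference was 0.23 in batch 1 and -0.030 in batch 2 (adjusted p = 1.00). With 3 mice against 3, batch 1 alone gave 2 calls, Acp5 and Psap, where 0.362% of all genes were called higher, and batch 2 alone gave 0, as it did over all genes.

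**Figure D4:**
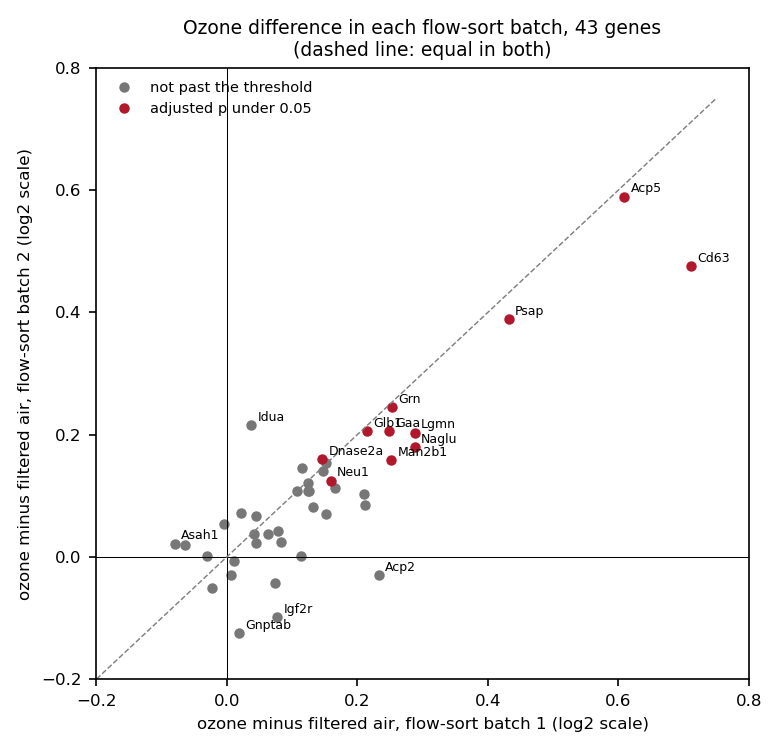
Difference between ozone and filtered air on the log2 scale in flow-sort batch 1 (horizontal axis) and batch 2 (vertical axis), 3 mice per group and batch, for the 43 genes; red points have an adjusted p under 0.05 in all mice, and the dashed line marks equal differences. All red points are above 0 on both axes, and Acp2, at 0.23 and -0.030, is the farthest from the line to its right.

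Leaving out 1 mouse at a time, 8 of the 11 genes that rose were called in all 12 fits: Acp5, Psap, Grn, Glb1, Gaa, Naglu, Man2b1 and Cd63. The calls of Neu1, Lgmn and Dnase2a were lost in 10, 8 and 11 of the 12 fits, with highest adjusted p-values of 0.0997, 0.0703 and 0.106. Quantile normalization kept 5 calls, those of Acp5, Psap, Grn, Glb1 and Gaa, while the share of all genes called higher was 0.54%.

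Other lysosomal genes outside the 43 were taken from a list of 67. Of these, 66 were tested, 3 rose and 0 fell, and the median difference was 0.035; at an unadjusted p under 0.05, 18 were higher and 4 lower. Over all genes, 2.41% were called higher, and 8.43% were higher and 8.29% lower at an unadjusted p under 0.05. Glmp, a glycosylated protein of the lysosomal membrane, rose by 0.18 (SE 0.0367, adjusted p = 0.0130 in limma), with ozone mice from 0.091 to 0.22 and filtered-air mice from -0.057 to 0.062. Man2b2, an alpha-mannosidase, rose by 0.14 (SE 0.0324, adjusted p = 0.0218). Both had separate groups; leaving out single mice, Glmp was called in all 12 fits, and the call of Man2b2 was lost in 3. The count of 3 was 7 without ozone replicate 6, where 2.27% of all genes were called higher, and 5 without filtered-air replicate 4 (2.21%). It was 1 without filtered-air replicate 2 (1.95%), ozone replicate 4 (1.97%) or ozone replicate 5 (1.67%). The median was 0.059 over the 21 hydrolases and their helpers, 0.032 over 27 membrane proteins and transporters and 0.011 over 18 adaptors of sorting, of which 0 passed. The lowest of the 66 was Slc11a1, a metal transporter of the phagosome, at -0.30 (adjusted p = 0.123).

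Annotated exons of 18 of the 43 genes overlapped those of another gene, in 17 on the opposite strand. The library kit keeps the strand per the labels' protocols, but how strand was used in counting is not given in the sources used here. Of the 11 genes that rose, Glb1 shares exons with Tmppe on its own strand, and Acp5, Dnase2a and Grn overlap 6530413G14Rik, Mast1 and Fam171a2 on the other. None of these 4 neighbours passed in limma, with differences between -0.065 and 0.064 and adjusted p-values from 0.498 to 0.943.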

How the data were processed

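RNA of flow-sorted alveolar macrophages from 12 mice (6 ozone, 6 filtered air) was analysed from 1 table deposited by the authors, whose log2 values were variance-stabilized and batch-corrected, going by the name it was deposited under. The submitters' processing notes list cutadapt, STAR 2.7.7a, Salmon 1.5.2, DESeq2 1.26.0, R 3.6.0, limma 3.42.2 and the build mm10, without their roles. All 12 columns matched a sample title. In every gene the filtered-air mean and the difference between batch means were 0.

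Genes with at least 6 mice above the lowest value shared within a batch (tolerance 1e-06) were kept, 19633 of 25444 that varied. The test was limma 3.58.1 in R 4.3.3, with exposure and flow-sort batch in the model and no variance trend, Benjamini-Hochberg adjustment over all genes kept and a threshold of 0.05; it was tested on simulated data. Single values were compared by two-sided exact permutation over 6 mice against 6. P-values measure the spread between mice. Named with full values are genes past the threshold, genes with separate groups and the smallest p of each class. Genes, lists and tests were chosen with earlier results of these data known. Alternatives were a variance trend, a robust fit, other filters, quantile normalization, other covariates, single batches, a replicate block and leaving out each mouse. Values of a few genes outside the 43 are not reported here. Positions are from GENCODE M21 and promoter windows from RefSeq.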

Additional observations from a re-analysis of the deposited data

Results flagged for a closer look

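In 5 of 86 combinations of gene and group, 1 mouse lay far from the other 5 of its group (gap to the nearest mouse over the range of the group, above Dixon's 95% critical value for 6), where chance gives about 4.3. Naglu was low in ozone replicate 6, at 0.0998 with the nearest mouse at 0.25 (ratio 0.836). Man2b1 was high in filtered-air replicate 4, at 0.12 with the nearest mouse at -0.00059 (ratio 0.655). Gaa and Gnptab were low in filtered-air replicate 3, at -0.077 (ratio 0.644) and -0.25 (ratio 0.644). Galns was low in filtered-air replicate 5, at -0.11 (ratio 0.723). Without these mice Naglu rose by 0.26, Man2b1 by 0.23 and Gaa by 0.21, each still called in limma. Gnptab and Galns, which were not called, went from -0.052 to -0.11 and from 0.058 to 0.034.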

How the results depend on the processing

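The count of 11 genes called higher stayed within 1.5 times (8 to 14 genes) under the variance trend, the robust fit and both other filters. The same held for no batch covariate, RNA integrity as a covariate and the replicate block. Without single mice the count was 8 to 11, where 1.66% to 2.32% of all genes were called higher. The share of all genes called higher, 2.41% as reported, was 1.99% with the trend (8 of the 43) and 2.33% in the robust fit (11). It was 1.83% without the filter (12) and 2.91% with reads required in all mice (12). Without the batch covariate it was 3.28% (13), in a fit that does not count the batch correction already made to the values. With RNA integrity it was 2.36% (9). Quantile normalization gave 5 (0.54% of all genes), batch 1 alone 2 (0.362%) and batch 2 alone 0 (0%); the single batches use fewer mice, and the cause for quantile normalization was not tested. None of the 43 genes was called lower under any of these settings. By more than the spread between mice, class medians moved in batch 1 alone for sulfatases (0.11) and phosphatases (0.42), and in batch 2 alone for phosphatases (0.28); by over 1.5 times but within that spread, those of lipid hydrolases (0.022) and tagging and sorting (0.045) also moved in batch 1, and those of sulfatases (0.038) and lipid hydrolases (0.073) in batch 2. Of the other lysosomal genes, 5 were called higher without the filter and 5 without the batch covariate, 7 with the replicate block, and 0 after quantile normalization and in either batch alone, where batch 1 gave 1 lower; without single mice 1 (without filtered-air replicate 2, ozone replicate 4 or ozone replicate 5) to 7 were higher and 0 to 2 lower (7 and 2 without ozone replicate 6). The cause was not tested.

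Under the settings other than leaving out a mouse, 79 values of the 11 called genes kept their call and 31 lost it in the same direction; the variance trend ended the calls of Neu1, Dnase2a and Cd63 (adjusted p 0.0519, 0.0575 and 0.0623). Signs turned only among genes that were not called: Cln3 with RNA integrity (-0.020) and in batch 2 (-0.0070), in batch 1 Lamp2 (0.0066), Gnptab (0.019), Gnptg (-0.0049) and Igf2r (0.077), and in batch 2 Manba (-0.042), Ids (0.0017), Asah1 (0.022), Pla2g15 (0.019) and Acp2 (-0.030). Without single mice Cln3 ranged from -0.033 to 0.042, Igf2r from -0.063 to 0.041, Lamp2 from -0.045 to 0.044, Manba from -0.011 to 0.047, Ids from -0.036 to 0.0090, Asah1 from -0.078 to 0.041 and Gnptg from -0.0030 to 0.039.

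Same-numbered mice of the groups are different animals, and their deviations from the group means correlated between -0.0026 and 0.28, over 0.1 in 4 of 6 pairs; 6 of 12 mice correlated best with their own number. With the replicate block in place of batch, 14 of the 43 genes were called, with Hexa, Tpp1 and Lamp1 added, and the share of all genes called higher was 3.40%.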
